A study of Rattus norvegicus with 6 samples.

Results

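A set of 10 genes of sphingomyelin metabolism was followed in primary rat chondrocytes exposed to all-trans retinoic acid (RA). They were Smpd1, Smpd2, Smpd3 and Smpd4 (sphingomyelinases), Sgms1 and Sgms2 (sphingomyelin synthases), Asah1 (a ceramidase), Sphk1 and Sphk2 (sphingosine kinases) and Sgpl1 (sphingosine 1-phosphate lyase). All 10 were found by symbol among the 18923 genes of the deposited files, each under 1 identifier. The set was chosen by its enzyme classes around Smpd3, a gene selected on its low level in RA in these same samples, so the differences of the 10 genes between the groups are a description and carry no p-value. The cells came from the cartilage of newborn (24-h-old) female Sprague-Dawley rats, labelled WT, and were used at passage 1 or 2. The control group (CON, n = 3) was kept for 24 h in high-glucose DMEM with 10% FBS and penicillin-streptomycin. The RA group (n = 3) was kept for 24 h in this medium with 1 µM RA added. The labels do not say whether the control medium held the solvent of RA, nor which animals gave which sample.

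Sphingomyelin is a major lipid of the plasma membrane. Sphingomyelinases cut it to ceramide, and sphingomyelin synthases rebuild it from ceramide at the Golgi and the plasma membrane. Ceramidases convert ceramide to sphingosine, sphingosine kinases phosphorylate that product to the signalling lipid sphingosine 1-phosphate, and the lyase breaks this lipid down for good. Smpd3 encodes the neutral sphingomyelinase nSMase2, which sits at the inner face of the plasma membrane and in the Golgi. It is known in the skeleton from mice without its activity, whose cartilage and bone mineralize poorly.

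Between 29370025 and 38007486 reads per sample were counted on genes. CON sample 1 stood apart from the other samples: the chi-square of its counts against another CON sample was 39.9 and 64.2 per gene, compared with 8.20 for the pair of CON samples 2 and 3 and between 6.47 and 8.18 for pairs of RA samples. Values without CON sample 1 are therefore given beside the results it moved most. Of 6 genes known to respond to retinoic acid, 5 were higher in RA by the call rule explained below, with Cyp26b1, a retinoic acid hydroxylase, averaging 1.51 ± 0.187 FPKM in the CON samples and 9.52 ± 0.916 in the RA samples (SD, n = 3 each). The call of Rarb, the retinoic acid receptor gene among the 5, was borderline (adjusted p = 0.0493, edgeR) and was lost in 5 of 6 fits when 1 sample was dropped. All 7 chondrocyte markers were expressed, and their summed level lay between 6320 and 8360 FPKM in CON and between 4028 and 4344 in RA, with 6 of the 7 lower in RA by the same rule. Markers of other cells were low: the sums ran from 5.33 to 7.99 FPKM in CON and from 6.10 to 6.77 in RA for endothelium, from 13.2 to 14.7 and from 16.1 to 17.4 for macrophages, and from 4.72 to 6.00 and from 6.96 to 7.87 for skeletal muscle. The macrophage and muscle sums were higher in RA without overlap. Most of each sum came from 1 gene, Egfl7 for endothelium (6.56 FPKM on average), Cd14 for macrophages (14.1) and Des for muscle (5.90), and below 1 FPKM lay 3 of 4, 4 of 6 and 4 of 5 matched markers, among them Cdh5, Adgre1 and Myh3. Myod1 of the muscle list was called higher in RA at a mean of 0.366 FPKM. The osteoblast list summed to 8.20 to 9.47 FPKM in CON and 8.19 to 8.45 in RA, with Ibsp called higher (1.47 on the log2 scale) and Alpl, its most abundant gene, at 7.07 FPKM in CON and 5.35 in RA on average (-0.42 on the log2 scale, adjusted p = 0.0219, edgeR). The fibroblast and perichondrium list was abundant, between 3719 and 4911 FPKM in CON and between 4805 and 5059 in RA, and its genes went both ways: Postn was called lower (log2 fold change -1.29), Pdgfra was higher by 0.44 (adjusted p = 0.00155, edgeR), and Col1a1, Thy1 and Col3a1 had 0.21, 0.13 and -0.00068 without reaching an adjusted p of 0.05. In bulk RNA, fewer cells of a type and less RNA per cell cannot be told apart, and the part of cell composition in the values below was not tested.

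Smpd3 (ENSRNOG00000000257) had the largest difference of the 10 genes and lay well apart from the others. Its level was 4.18, 4.45 and 4.36 FPKM in CON samples 1, 2 and 3, and 1.02, 0.927 and 0.995 FPKM in RA samples 1, 2 and 3. FPKM divides a read count by gene length and by library total, so it allows levels of different genes to be compared. Every RA sample was below every CON sample, and the samples within a group lay close together, with a coefficient of variation of 3.19% in CON and 5.08% in RA. These levels rested on 646, 676 and 833 reads in CON and on 153, 137 and 155 reads in RA. The mean went from 4.33 ± 0.138 FPKM to 0.982 ± 0.0499 FPKM (SD, n = 3 each). The log2 fold change fitted to the counts was -2.15 (standard error 0.0947), a difference of -77.5% from the control level. By this value Smpd3 ranked 13th from the lowest among the 11342 tested genes that averaged at least 1 FPKM, and 30th among all 13438 tested. When any 1 sample was left out the log2 fold change stayed between -2.18 and -2.12. Levels of chondrocyte markers were also lower in RA: the log2 fold change was -1.51 for the proteoglycan gene Acan, -0.78 for the collagen gene Col2a1 and -0.49 for the transcription factor gene Sox9.

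**Figure D1:**
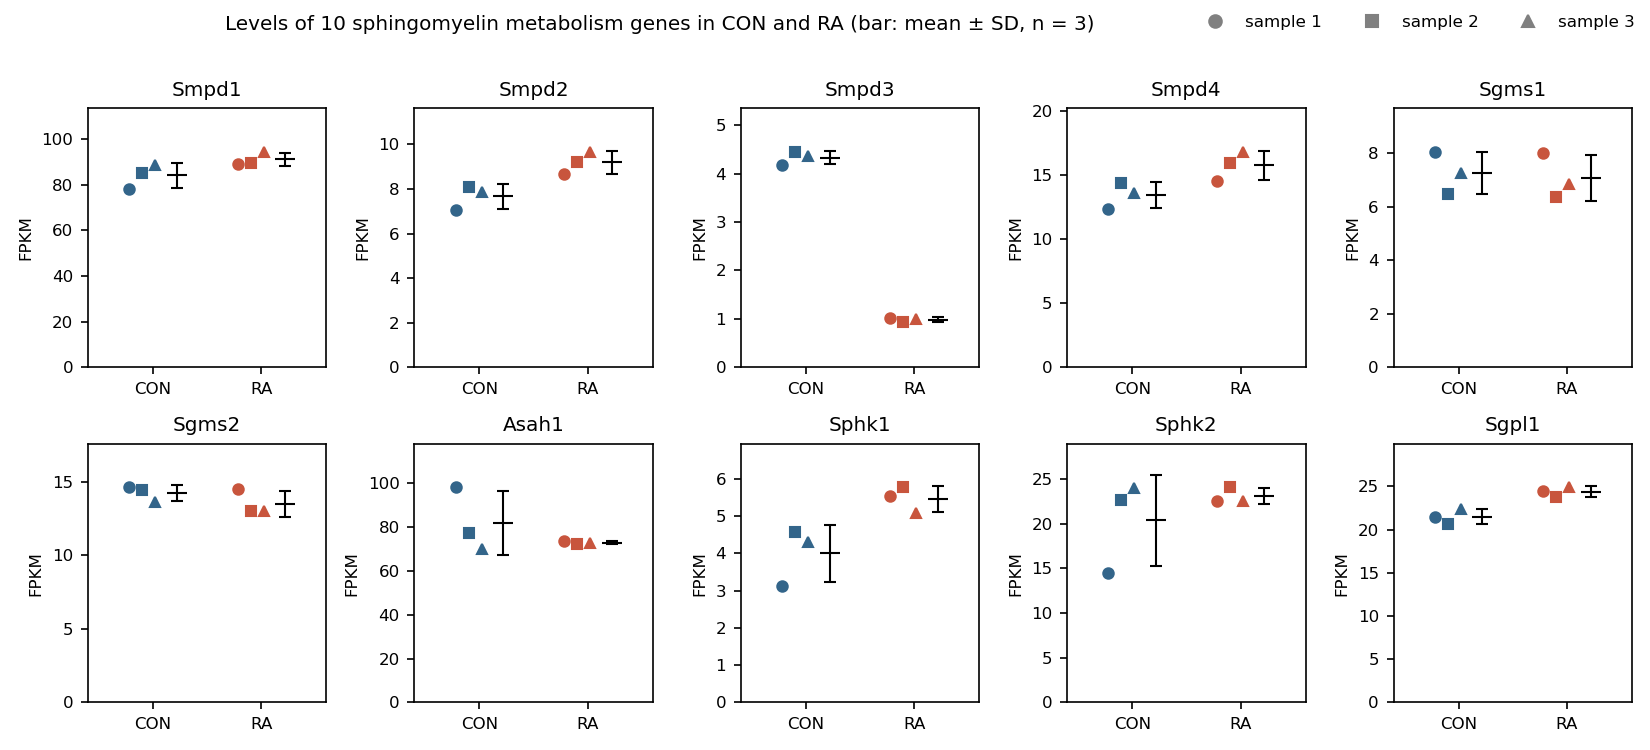
Each panel shows the FPKM of 1 gene in the 3 CON and the 3 RA samples, with the mean ± SD beside the points and the vertical axis starting at 0. Smpd3 lies between 4.18 and 4.45 in CON and between 0.927 and 1.02 in RA, while CON sample 1 is the lowest point for Sphk1 and Sphk2 and the highest for Asah1.

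The other sphingomyelinase genes did not share the low level of Smpd3 in RA. Smpd1, the gene of the lysosomal acid sphingomyelinase that is deficient in Niemann-Pick disease types A and B, was the most abundant of the 4, at 78.2, 85.2 and 88.7 FPKM in CON and 89.2, 89.4 and 94.5 FPKM in RA. Its groups were just separated, by less than 1 FPKM, and its log2 fold change was 0.10 (standard error 0.069). Smpd2 encodes a neutral sphingomyelinase of the endoplasmic reticulum. It measured 7.04, 8.08 and 7.88 FPKM in CON and 8.67, 9.22 and 9.68 FPKM in RA. All of its RA samples were above its CON samples, and the log2 fold change was 0.25 (standard error 0.099). Smpd4 encodes the membrane-bound neutral sphingomyelinase of the endoplasmic reticulum and nuclear envelope. Its levels were 12.3, 14.4 and 13.6 FPKM in CON and 14.5, 15.9 and 16.8 FPKM in RA, a log2 fold change of 0.22 (standard error 0.0857). The lowest RA sample and the highest CON sample of Smpd4 were nearly level. Without CON sample 1 the log2 fold changes of Smpd1, Smpd2 and Smpd4 were 0.050, 0.19 and 0.15. Without CON sample 3, Smpd1 had 0.15.

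Smpd3 was a small part of the sphingomyelinase transcripts in both groups. Its share of the summed FPKM of the 4 genes was 4.11%, 3.97% and 3.80% in CON and 0.903%, 0.803% and 0.816% in RA. The mean share went from 3.96% ± 0.153 to 0.841% ± 0.0545 (SD, n = 3 each), a difference of -3.12 percentage points. Smpd1 made up 76.7% ± 0.728 of the sum in CON and 77.8% ± 0.693 of it in RA (SD, n = 3 each). The summed level of all 4 genes was 102, 112 and 115 FPKM in CON and 113, 116 and 122 FPKM in RA. The sums overlapped between the groups. The difference in Smpd3 was smaller than the SD of this sum in CON (6.79 FPKM), so the sum could not show it. Smpd1, Smpd2 and Smpd4 together had 105.1 ± 6.67 FPKM in CON against 116.0 ± 4.47 in RA (SD, n = 3 each), without overlap. The ratio of Smpd3 to Smpd2, the genes of a pair of neutral enzymes, was 0.594, 0.551 and 0.553 in CON and 0.118, 0.101 and 0.103 in RA. Transcript shares say nothing of enzyme activity, which was not measured.

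The sphingomyelin synthase genes overlapped between the groups. Sgms1, the gene of the Golgi synthase, measured 8.06, 6.46 and 7.26 FPKM in CON and 8.0, 6.35 and 6.85 FPKM in RA. Its log2 fold change was -0.052 (standard error 0.112), and its sign changed without CON sample 1 (0.023) or RA sample 2 (0.016). Sgms2, whose enzyme also works at the plasma membrane and which is known from a human skeletal disorder with fragile bones, differed by -0.091 on the log2 scale (standard error 0.0741), and by -0.14 without RA sample 1. It measured 14.7, 14.5 and 13.6 FPKM in CON and 14.5, 13.0 and 13.0 FPKM in RA. The ratio of the summed synthase FPKM to the summed sphingomyelinase FPKM was 0.223, 0.187 and 0.182 in CON and 0.199, 0.168 and 0.163 in RA. These ratios overlapped, with means of 0.198 ± 0.0224 and 0.176 ± 0.0195 (SD, n = 3 each).

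Asah1 and the sphingosine kinase genes were those on which CON sample 1 weighed most. Asah1 encodes the lysosomal acid ceramidase. Its level was 98.4, 77.5 and 69.8 FPKM in CON and 73.6, 72.5 and 72.7 FPKM in RA, so the RA samples were almost equal and lay inside the range of CON. The log2 fold change of Asah1 was -0.18 (standard error 0.111), and -0.030 (standard error 0.0509) without CON sample 1 and -0.27 without CON sample 3. Sphk2, the gene of the mainly nuclear and mitochondrial kinase, measured 14.5, 22.6 and 24.0 FPKM in CON and 22.5, 24.1 and 22.6 FPKM in RA. Its log2 fold change of 0.16 (standard error 0.168) turned to -0.032 (standard error 0.06) without CON sample 1 and was 0.31 without CON sample 3. Sphk1, the gene of the mainly cytosolic kinase, measured 3.14, 4.56 and 4.30 FPKM in CON and 5.53, 5.78 and 5.08 FPKM in RA. All RA samples of Sphk1 were above its CON samples. Its log2 fold change of 0.44 (standard error 0.141) was the largest positive one of the 10 genes, and it was 0.29 (standard error 0.0835) without CON sample 1.

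Sgpl1, the gene of the lyase that ends the pathway, was slightly higher in each RA sample than in any CON sample. It measured 21.5, 20.6 and 22.4 FPKM in CON and 24.5, 23.7 and 24.9 FPKM in RA, a log2 fold change of 0.17 (standard error 0.0627). The value was 0.16 without CON sample 1. The ratio of summed kinase FPKM to lyase FPKM was 0.821, 1.32 and 1.26 in CON and 1.15, 1.26 and 1.11 in RA. The difference of the mean ratios, 0.038, was smaller than the SD of CON (0.272), and it was -0.119 without CON sample 1 and -0.0066 without RA sample 2. Within the kinases, the ratio of Sphk1 to Sphk2 was 0.216, 0.202 and 0.180 in CON and 0.245, 0.240 and 0.225 in RA, which did not overlap.

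**Figure D2:**
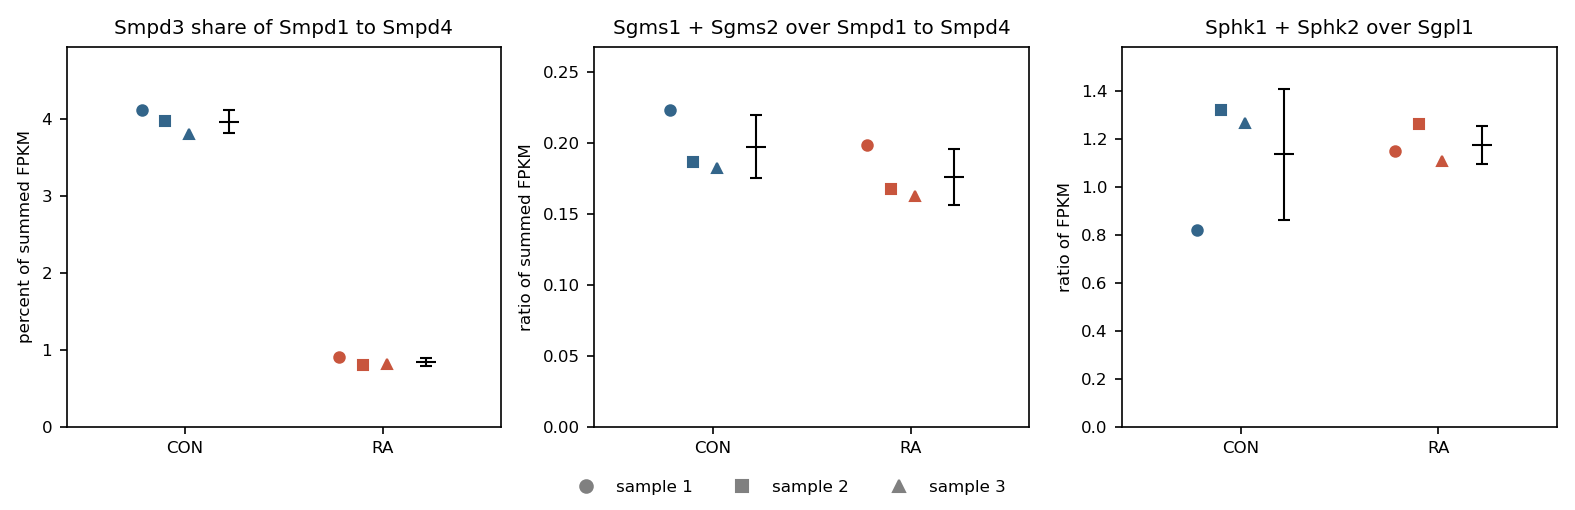
The panels show per sample the percent of summed sphingomyelinase FPKM that was Smpd3, the ratio of synthase to sphingomyelinase FPKM, and the ratio of sphingosine kinase to lyase FPKM, each with the mean ± SD (n = 3) and an axis from 0. The first falls apart into 3.80% to 4.11% in CON and 0.803% to 0.903% in RA, while the groups overlap in the other 2.

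The order of the levels was nearly the same in both groups. In CON it ran from Smpd1 (84.0 FPKM on average) through Asah1 (81.9), Sgpl1 (21.5), Sphk2 (20.4), Sgms2 (14.3), Smpd4 (13.5), Smpd2 (7.67), Sgms1 (7.26) and Smpd3 (4.33) to Sphk1 (4.00). The sample ranges of Smpd1 and Asah1 overlapped, as did those of Sgpl1 and Sphk2, Sphk2 and Sgms2, Sgms2 and Smpd4, Smpd2 and Sgms1, and Smpd3 and Sphk1. In RA, Sgpl1 and Sphk2, and Smpd4 and Sgms2, were the neighbours whose ranges overlapped. Smpd3 was last there, at 0.982 FPKM, and its range no longer met that of Sphk1, which averaged 5.46 FPKM. Smpd4 and Sgms2 changed places in RA (15.8 and 13.5 FPKM on average). The read counts alone give another order, since the FPKM of Smpd3 is scaled by a length of 5031 bases and that of Smpd2 by 1666 bases: CON sample 1 held 646 reads of Smpd3 and 360 of Smpd2.

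A gene was called when edgeR gave it an adjusted p below 0.05 (quasi-likelihood test) and its log2 fold change was beyond 0.58 in either direction, the fold-change limit of the study's methods. The filter on low counts kept all 10 genes, and 1 of them, Smpd3, was called. Among all 13438 genes tested, 4.96% were called and 2.29% were called lower in RA. With adjusted p below 0.05 alone, Smpd3 was again the 1 gene of the 10, compared with 9.82% of all genes. The FPKM ranges of CON and RA did not overlap for 5 genes that were higher in RA (Smpd1, Smpd2, Smpd4, Sphk1 and Sgpl1) and for 1 that was lower (Smpd3). The corresponding shares of all genes tested were 18.9% and 13.3%. Since the set was built from this comparison, nothing is read from these counts. The log2 fold changes of the 9 genes other than Smpd3 ran from -0.18 to 0.44. The median over the 10 genes was 0.13 and over all genes tested -0.0057.

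**Figure D3:**
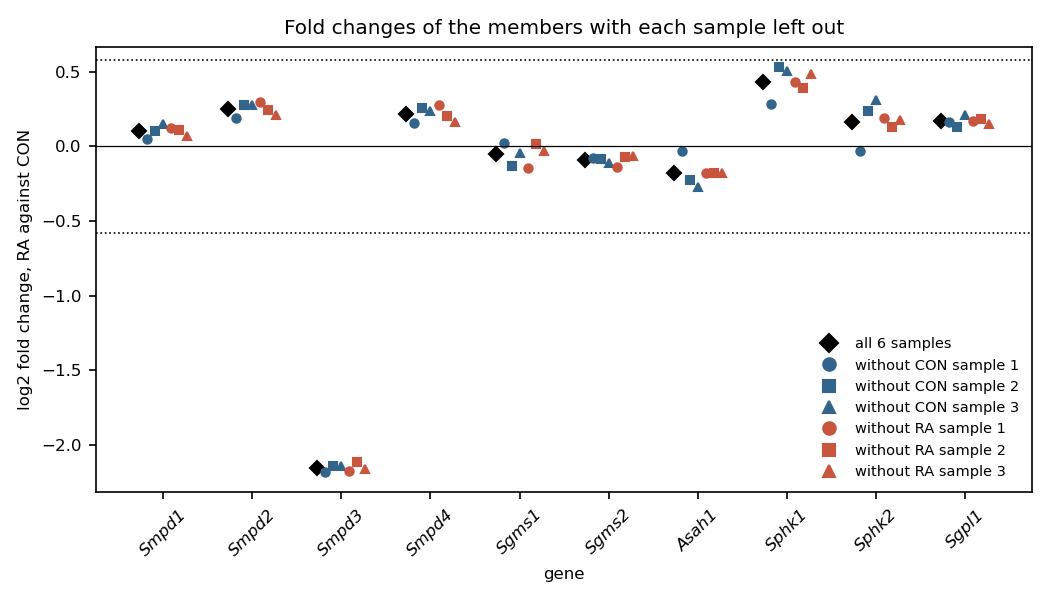
The vertical axis gives the log2 fold change of RA against CON for each of the 10 genes with all 6 samples (black) and in fits without 1 sample, and the dotted lines mark 0.58 in either direction. Smpd3 stays between -2.18 and -2.12, and Asah1, Sphk1 and Sphk2 move most when CON sample 1 is left out, to -0.030, 0.29 and -0.032.

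The rest of the sphingolipid pathway was read from 59 further genes listed by role, of which 56 were matched to the files and 48 passed the filter on low counts. Of the 48, 1 was called, Sptlc3, and it was lower in RA, beside 4.96% of all genes called and 2.29% called lower. None was called higher by edgeR, and DESeq2 called none higher either. At an unadjusted p below 0.05, 10 of the 48 were higher and 2 lower by edgeR's test, beside 12.3% and 11.7% of all genes tested. The median log2 fold change of the 48 genes was 0.023. The 8 matched genes that did not pass the filter were Cers3, Degs2, Smpd5, Acer1, Sgpp2, S1pr4, Mfsd2b and Ugt8.

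Sptlc3 (ENSRNOG00000004443) encodes a subunit of serine palmitoyltransferase, the enzyme that begins ceramide synthesis, and is an alternative subunit that alters the chain length of its products. It was expressed at a low level, 0.321, 0.262 and 0.280 FPKM in CON and 0.109, 0.0825 and 0.0887 FPKM in RA, from 61, 49 and 66 reads and from 20, 15 and 17 reads. No RA sample reached the lowest CON sample. The log2 fold change of Sptlc3 was -1.63 (standard error 0.243), with a Benjamini-Hochberg adjusted p of 0.00419 in edgeR. It was called in all 6 fits that left out 1 sample, at -1.75 to -1.55. It was not called in limma on log2(FPKM + 1), where its value was -0.24, and a filter of FPKM 1 in 3 samples removed it before the test. Sptlc1 and Sptlc2, genes of other subunits of the same enzyme, singled out after their values were seen, had log2 fold changes of 0.039 and 0.023 and were not called. Of the 13 tested genes of ceramide synthesis, 12 were not called, with a median over the 13 of -0.024. Kdsr, which reduces the first intermediate, went from 15.6 ± 0.623 to 18.5 ± 0.537 FPKM (SD, n = 3 each), and its adjusted p of 0.0712 (edgeR) missed the threshold but was 0.0377 without CON sample 1. Cers2, the ceramide synthase for very long chains, went from 62.7 ± 1.44 to 72.8 ± 2.19 FPKM (SD, n = 3 each) with an adjusted p of 0.0651 (edgeR). The test of Cers2 lay close to the threshold: its adjusted p was 0.0288 in edgeR without CON sample 1 and 0.0310 in DESeq2, while the log2 fold change of 0.20 stayed short of 0.58.

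A further 4 genes of the pathway had an adjusted p below 0.05 with a log2 fold change short of 0.58, and all 4 were higher in RA. Among all genes tested, 5.31% were higher in RA at an adjusted p below 0.05 with a fold change of any size. St3gal5, the synthase of the ganglioside GM3, went from 15.7 ± 1.08 to 21.4 ± 1.61 FPKM (SD, n = 3 each), or 0.44 on the log2 scale (adjusted p = 0.0102, edgeR). B4galt5, which makes the lactosylceramide that St3gal5 uses, measured 20.1, 20.6 and 20.5 FPKM in CON and 25.4, 23.5 and 25.8 FPKM in RA (adjusted p = 0.0278, edgeR). Plpp3, a surface phosphatase for sphingosine 1-phosphate and related lipids, measured 7.82, 7.89 and 7.16 FPKM in CON and 10.2, 9.60 and 9.53 FPKM in RA (adjusted p = 0.0171, edgeR). Gm2a, the activator protein for breakdown of the ganglioside GM2, went from 135 ± 7.59 to 166 ± 7.19 FPKM (SD, n = 3 each; adjusted p = 0.0299, edgeR). Most of these tests missed the threshold in smaller fits: with 1 sample left out, the adjusted p stayed below 0.05 in 3 of 6 fits for St3gal5, in 2 for Plpp3, in 2 for B4galt5 and in 1 for Gm2a. The fit without CON sample 1 was among these for each of the 4 genes.

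The other roles held no called gene. Among 4 genes related to the sphingomyelinases and synthases, Smpdl3b, which encodes an acid sphingomyelinase-like phosphodiesterase, had the largest log2 fold change, 0.33 (adjusted p = 0.127, edgeR), and its relative Smpdl3a had -0.19 (adjusted p = 0.266, edgeR). Without CON sample 1 the value of Smpdl3b was 0.22, and without RA sample 2 that of Smpdl3a was -0.12. For the 3 genes of ceramide transfer and phosphorylation the log2 fold changes ran from -0.040 (Cptp, a carrier of ceramide 1-phosphate) to 0.024 (Cert1, the carrier of ceramide to the Golgi), and were -0.12 and 0.093 for this pair without CON sample 1. Asah2, the neutral ceramidase gene, measured 1.43, 1.03 and 1.08 FPKM in CON and 1.11, 1.00 and 0.815 FPKM in RA (adjusted p = 0.379, edgeR). Its log2 fold change was -0.28, and -0.13 without CON sample 1. Of the 5 tested genes for receptors and transporters of sphingosine 1-phosphate, the exporter gene Spns2 differed by 0.35 on the log2 scale (adjusted p = 0.173, edgeR) and the receptor gene S1pr2 by 0.12 (adjusted p = 0.451, edgeR). Leaving out CON sample 1 gave 0.047 for S1pr2, and leaving out CON sample 3 gave 0.18. The largest value of this role belonged to the receptor gene S1pr5, singled out after its values were seen, at -1.04 (standard error 0.433, adjusted p = 0.188, edgeR), from 19, 11 and 27 reads in CON and 8, 5 and 12 reads in RA. The 11 genes of glycosphingolipid breakdown had a median of 0.13, and Gba2, a glucosylceramidase outside the lysosome, had the largest value, 0.30 (adjusted p = 0.139, edgeR).

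**Figure D4:**
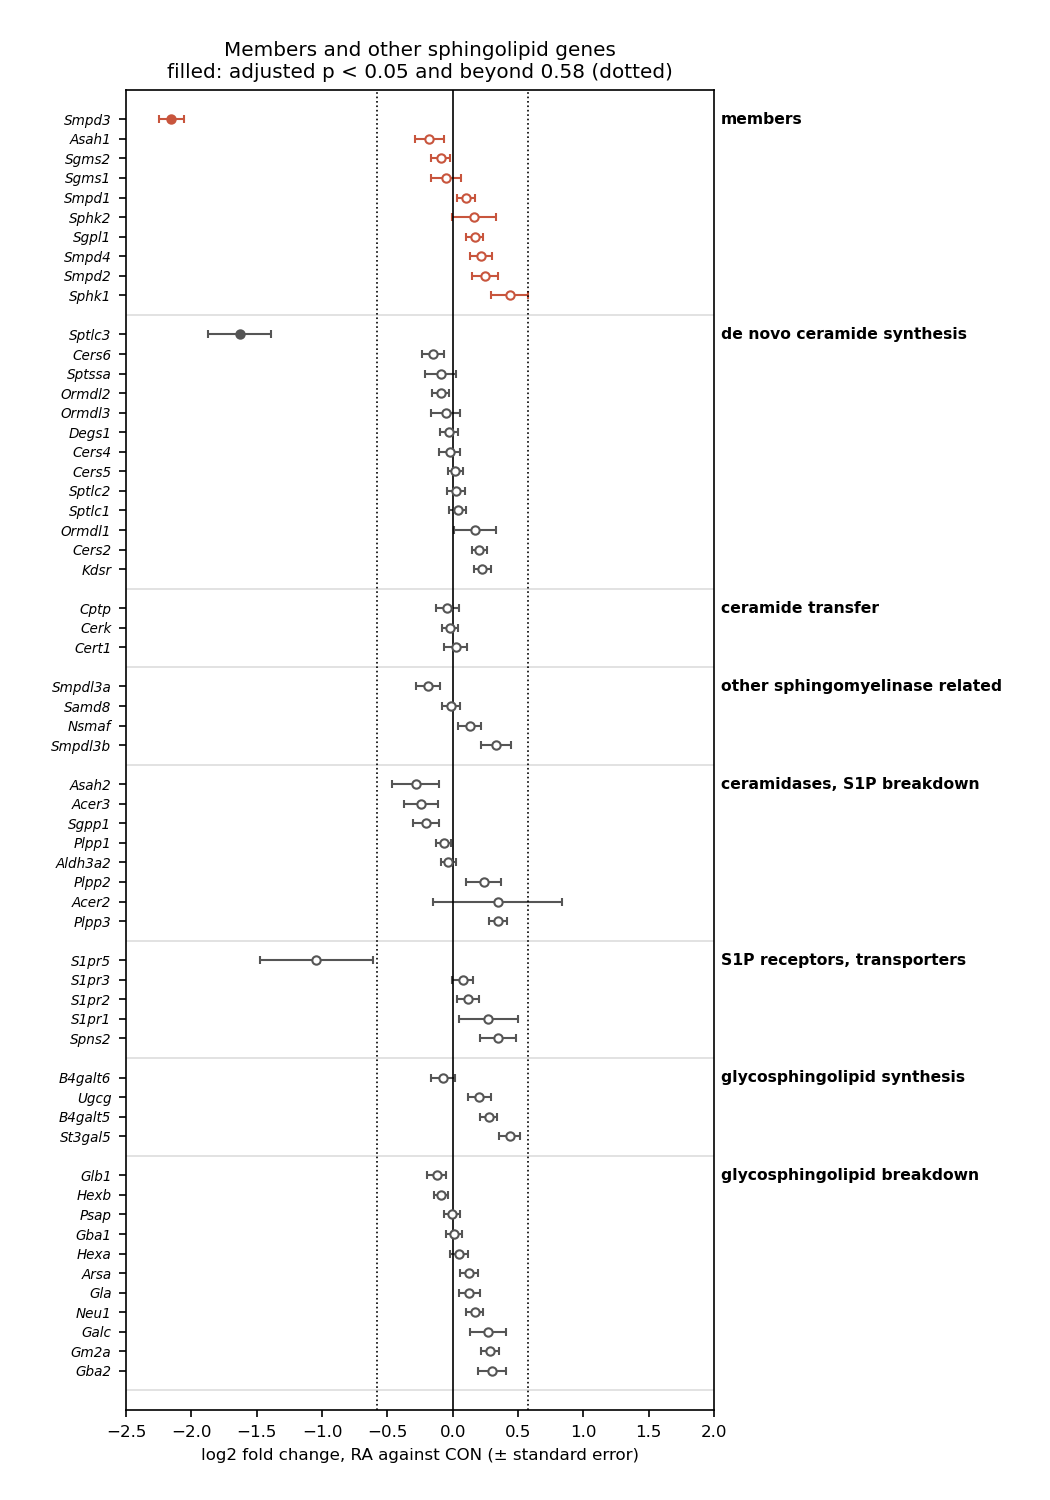
Points give the log2 fold change of RA against CON ± its standard error for the 10 genes (red) and for the 48 tested genes of the rest of the pathway (grey) by role, and dotted lines mark 0.58 in either direction. Filled points are called genes: Smpd3 at -2.15 and Sptlc3 at -1.63.

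The genes whose profile was nearest to that of Smpd3 were sought among 11341 other tested genes with a mean FPKM of at least 1. The measure was the root mean square difference of log2 CPM, centred on the mean of each gene, over the 6 samples. It was smallest for Slc38a3 (0.139), a glutamine transporter gene, followed by Colgalt2 (0.168), a collagen galactosyltransferase gene, Sfrp2 (0.186), which encodes a secreted Wnt antagonist, Smim5 (0.195) and Ucma (0.201), which encodes a matrix protein of cartilage. The median over all genes compared was 1.08, and the smallest value among the other 9 sphingomyelin genes was 1.00. Since 6 samples in 2 groups define the profile, the measure finds mostly genes that were lower in RA by a similar factor: the log2 fold changes of these 5 genes were -1.92, -1.91, -2.49, -1.95 and -1.77. Their levels were unlike, from 1.71 ± 0.165 (CON) and 0.443 ± 0.0237 (RA) FPKM for Smim5 to 515 ± 23.1 (CON) and 152 ± 6.06 (RA) FPKM for Ucma (SD, n = 3 each).

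**Figure D5:**
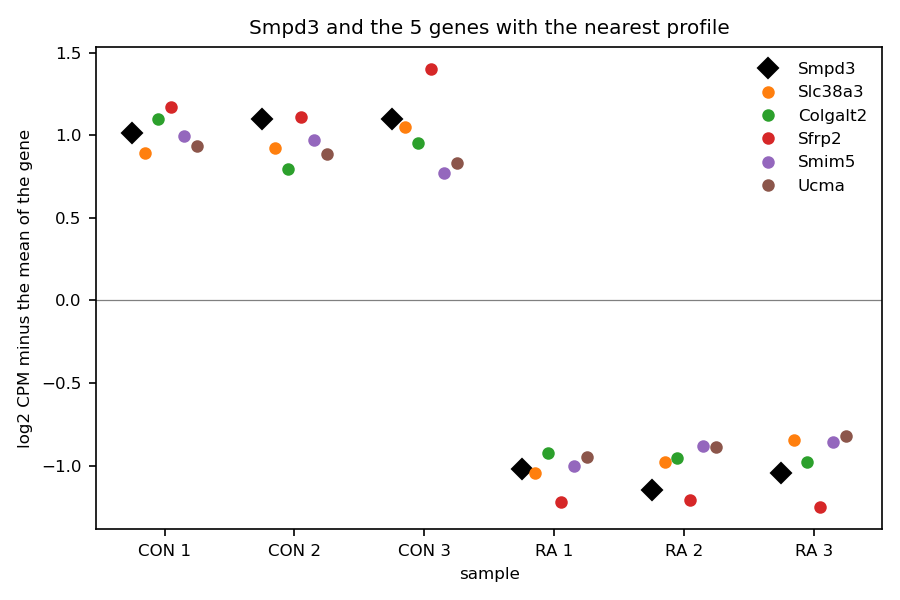
For each of the 6 samples the vertical axis gives log2 CPM minus the mean of the gene for Smpd3 (black diamonds) and the 5 genes with the nearest profile (circles). Smpd3 lies between 1.01 and 1.1 in CON and between -1.15 and -1.02 in RA, with Sfrp2 beyond it in every sample.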

How the data were processed

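Poly(A) RNA of 3 CON and 3 RA samples was sequenced on an Illumina HiSeq after NEBNext Ultra library preparation. Samples were grouped and numbered by their titles. The authors deposited for each gene a whole-number count of reads without normalization, and the FPKM, that is the count scaled to gene length and to the counted reads of its sample. The submitters' processing notes name HISAT2, HTSeq 0.13.5 and the build Rnor_6.0, without their settings or whether strand was used, so reads of overlapping antisense genes cannot be told apart.

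Counts were normalized by TMM, filtered with filterByExpr (minimum count 10, 13438 genes left) and tested with the quasi-likelihood test of edgeR 4.0.16 in R 4.3.3, without covariates, with Benjamini-Hochberg adjustment over all genes. The design named this test for counts. Standard errors were derived from the F statistic. Where a symbol has several identifiers, the one with most reads on average was kept. The members and the lists were chosen with earlier results of these data known. Genes named were the 10 members, each called gene of the pathway list, the 2 largest changes per role at a mean FPKM of at least 1, the retinoic acid response genes and the 5 nearest profiles (prior count 2). A count of 3, used as a rough upper limit on the expected count of a gene with 0 reads, is 0.0789 to 0.102 CPM, for counting error only. The samples are called independent in the study's methods.

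On counts simulated for 13438 genes in RA against CON, with 200 genes changed, 98% of genes changed by a log2 fold of 2 were called, 86% of those changed by 1, and 8 unchanged genes. The simulation gave all genes the same dispersion and held no sample that stood apart like CON sample 1. These figures therefore check the code and need not hold for the real samples. Alternatives were other scalings, filters and call rules, DESeq2 1.42.0, limma 3.58.1 on log2(FPKM + 0.1) and log2(FPKM + 1), the replicate number as a block, and each sample left out. Python 3.11.15 was used for tables.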

Additional observations from a re-analysis of the deposited data

How the results depend on the processing

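The log2 fold change of Smpd3 lay between -2.18 and -1.43 over the alternatives, the last in limma on log2(FPKM + 1), whose pseudocount shrinks the changes of low genes. Smpd3 was chosen for its low level in these samples, so its call and the count of 1 called of the 10, also without 1 sample (1 to 1), are no evidence of stability. The number of genes called moved from 667 to 434 in limma on log2(FPKM + 1), to 1017 with an unadjusted p and the fold change, and to 1319 with an adjusted p alone, and ran from 480 to 755 without 1 sample. The 1 called gene of the rest of the pathway became 0 when 3 samples had to reach an FPKM of 1, which drops Sptlc3 (44 tested, 10 or 22.7% with an unadjusted p below 0.05, beside 24.7% of all genes in that fit), and 0 in limma on log2(FPKM + 1) (48 tested, 12 or 25% with an unadjusted p below 0.05, beside 23.9% of all genes), where Sptlc3 had -0.24 (adjusted p = 0.0287, limma, range over all alternatives 8.63e-05 to 0.0287). It became 2 with an unadjusted p, the second gene being S1pr5 at 5 to 27 reads per sample, and 5 with an adjusted p alone. Without 1 sample it was 1 to 1. The difference in the share of Smpd3 was -6.20 percentage points in counts without length scaling, since Smpd3 is a long transcript, and -3.20 to -3.05 without 1 sample. The difference in the synthase ratio ran from -0.0324 to -0.0083, and that in the kinase to lyase ratio from -0.119 to 0.13 and changed sign. Signs also changed for Sgms1 (0.023 and 0.016 without CON sample 1 and RA sample 2, lowest -0.14), Sphk2 (-0.032 without CON sample 1, highest 0.31), Cert1 (-0.022 and -0.040 without CON sample 2 and RA sample 1, highest 0.093) and Cptp (0.033 without CON sample 3, lowest -0.12), none of them called. Rarb, the gene of a retinoic acid receptor, lost its call in 5 of the 6 fits without 1 sample, with the replicate block (adjusted p = 0.0526, edgeR), with upper quartile scaling (0.0507) and in both limma fits. Cers2 had an adjusted p below 0.05 with library totals alone (0.045, edgeR), in DESeq2 (0.0310), in limma (0.0400 and 0.0376) and without CON sample 1 (0.0288), over a range of 0.0288 to 0.258. For Kdsr it was below 0.05 in 1 alternative, without CON sample 1 (0.0377, edgeR), over a range of 0.0377 to 0.222. Upper quartile scaling was chosen after the data were seen.

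Correlations of the deviations from the group means were 0.0928, -0.0123 and 0.0118 for same-numbered samples, and -0.122 to 0.110 for samples of different number. With 3 samples per group, such correlations cannot show whether samples shared an animal or a preparation. With the replicate block, 684 genes were called, 1 of the 10 and 1 of the rest of the pathway.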
